A study of Mus musculus with 6 samples.

Results

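The genes described here are 10 transcription factor genes that mark or direct the first lineages of the mouse embryo: Eomes, Evx1, Mixl1, Sox1, Sox7, Sox17, Gata2, Gata6, Foxa2 and Cdx2. They were taken as a named list, and all 10 were found among the 55487 Ensembl genes of the deposited count table. The RNA came from the D6AdP line of embryonic stem (ES) cells, which are homozygous for DDX6-AID-mCherry, carry DCP1a-EGFP/+ and an OsTIR1-FLAG transgene, and were grown on mitomycin-treated fibroblast feeders with leukemia inhibiting factor, PD0325901 (a MEK inhibitor) and CHIR99021 (a GSK3 inhibitor). DDX6 is an RNA helicase of P-bodies, and the degron tag lets an auxin analog direct the protein to degradation. The 3 groups had the analog 5-Ph-IAA in the medium at 500 nM for 0, 3 or 6 h, the 0 h group being cells before its addition, with 2 libraries each. All 6 libraries were made from the same ES cell line, with the same alleles, and also hold RNA of the feeders. No library of ES cells without the degron and none of untreated cells kept for 3 or 6 h is among them. Effects of the analog, of time and of DDX6 loss therefore cannot be told apart.

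In the embryo these factors act as switches of early lineages. Eomes, Mixl1 and Evx1 belong to the primitive streak, from which mesoderm and definitive endoderm arise. Sox17, Sox7, Gata6 and Foxa2 belong to the endoderm lineages, Sox1 to the early neural plate, and Cdx2, Gata2 and again Eomes to the trophectoderm, the outer layer of the blastocyst that forms the placenta. Sox7, Sox17 and Gata2 are also active in endothelial or blood-forming cells, and Gata6 is active in several mesenchymal tissues.

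At 6 h, Eomes and Sox1 were higher than at 0 h, by 1.27-fold and 1.48-fold, and Sox7, Evx1 and Gata2 were lower, by 2.18-fold, 1.89-fold and 1.60-fold. These are 5 of the 8 genes tested, and 22.2% of all genes tested passed at 6 h. Sox1 was the least stable of the 5, and its call was lost with a second method, DESeq2 (adjusted p = 0.188). None of the 10 passed the test at 3 h. Gata6, Cdx2 and Mixl1 did not pass at any time, and Sox17 and Foxa2 had too few reads to be tested. A gene passed at an adjusted p under 0.05 in edgeR's quasi-likelihood test, with Benjamini-Hochberg adjustment over the 15748 genes tested. Because this is bulk RNA, a change in the share of cells that transcribe a gene and a change in the RNA per cell cannot be told apart.

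RefSeq windows from 250 bases before to 50 bases after a start site (GRCm38.p6) were at hand for 6 of the 10 genes, in 9 windows: 1 each for Eomes, Evx1, Sox1 and Cdx2, 2 for Gata2 and 3 for Foxa2. Printed are the 250 bases before the start of 3 changed genes, Eomes, Evx1 and Gata2 (the upstream of its 2 starts), and of Cdx2, which shares a motif with Evx1. They are written 5′ to 3′ on the gene's strand, and capitals mark the octamer ATGCAAAT, which POU factors such as OCT4 bind, and the CCAAT box, each on either strand.
Evx1, chr6:52313248-52313497, plus strand: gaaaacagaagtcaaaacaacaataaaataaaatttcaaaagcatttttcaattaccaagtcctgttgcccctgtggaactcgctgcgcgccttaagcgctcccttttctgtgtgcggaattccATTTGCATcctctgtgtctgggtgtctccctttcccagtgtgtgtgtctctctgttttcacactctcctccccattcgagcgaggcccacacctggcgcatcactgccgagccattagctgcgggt
Cdx2, chr5:147307250-147307499, minus strand: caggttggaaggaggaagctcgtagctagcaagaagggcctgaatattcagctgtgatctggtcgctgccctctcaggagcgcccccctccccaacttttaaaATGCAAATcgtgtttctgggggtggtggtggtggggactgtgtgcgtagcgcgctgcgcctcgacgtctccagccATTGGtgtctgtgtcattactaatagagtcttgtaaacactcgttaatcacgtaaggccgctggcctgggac
Eomes, chr9:118477939-118478188, plus strand: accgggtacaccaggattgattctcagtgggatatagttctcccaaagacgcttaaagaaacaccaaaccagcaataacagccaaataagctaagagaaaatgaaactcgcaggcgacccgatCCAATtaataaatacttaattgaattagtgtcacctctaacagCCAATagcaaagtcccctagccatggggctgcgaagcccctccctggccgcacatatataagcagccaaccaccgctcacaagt
Gata2, chr6:88193641-88193890, plus strand: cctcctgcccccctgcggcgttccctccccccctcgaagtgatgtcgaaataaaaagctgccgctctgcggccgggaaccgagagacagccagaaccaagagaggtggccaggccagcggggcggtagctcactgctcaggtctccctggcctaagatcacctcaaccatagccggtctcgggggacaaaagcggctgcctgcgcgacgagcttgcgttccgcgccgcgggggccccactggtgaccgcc

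The octamer was found in the windows of 3 of the 6 genes, Evx1, Sox1 and Cdx2, and in 1.97% of the 27025 genes of the same table. It begins 126 bases before the start in Evx1 and 147 before it in Cdx2, and 18 bases past it in Sox1. In these data Evx1 was lower at 6 h, and Sox1 was higher, a call lost with DESeq2 (adjusted p = 0.188). Cdx2 did not pass the test (log2 fold change -0.57 ± 0.30). A part of the octamer in these levels was not tested. The CCAAT box was found in Eomes, Sox1, Cdx2, Foxa2 and Gata2, and in 41.1% of all genes. The Gata2 window printed holds none of the motifs, and the CCAAT box of Gata2 is at its second start. Neither of the motifs overlapped the other. Of 5 further motifs searched on both strands, the TATA box (TATAAA, 15.7% of all genes) and the TCF/LEF motif (CTTTGAT, 4.29%) were found in 1 Foxa2 window. The AP-1 motif (TGANTCA, 8.97%), the ETS motif (CCGGAAG, 9.93%) and the CRE (TGACGTCA, 2.03%) were in none of the 9 windows. The motifs were chosen after the sequences had been seen. A match is only a run of letters, and binding was not measured.

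The libraries held 16357142 to 21846959 counts, of which the 10 genes together took 864 to 1120. After scaling with TMM factors, 1 count stood for 0.0463 to 0.0603 CPM, the depth-scaled unit of level used throughout, and 3 counts for 0.139 to 0.181 CPM. The cultures expressed the ES cell genes: all 15 of a list of identity genes were detected in every library, and their summed level was 7085 and 7351 CPM at 0 h, 7433 and 7359 CPM at 3 h and 6598 and 6829 CPM at 6 h. Feeder RNA was also abundant. A list of 25 fibroblast markers, all detected in every library, summed to 21550 and 19804 CPM at 0 h, 19218 and 18899 CPM at 3 h and 21521 and 19439 CPM at 6 h.

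**Figure D1:**
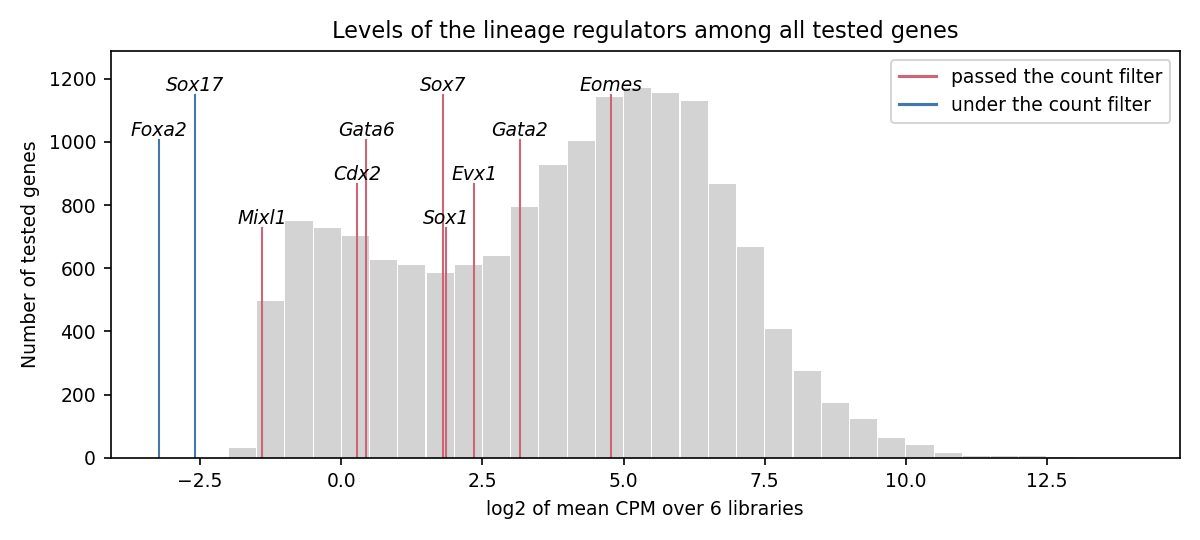
Distribution of the log2 mean CPM over the 6 libraries for the 15748 genes tested (grey bars, number of genes), with a line at each of the 10 lineage regulators. Eomes lies above the middle of the distribution, at 27.3 CPM, and Sox17 and Foxa2, at 0.165 and 0.107 CPM, lie under the count filter.

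The levels of the 10 genes spanned more than 2 orders of magnitude. To compare genes, CPM was divided by the length of the exons. On that scale the mean over the 6 libraries was 6.57 CPM per kb for Eomes, 1.78 for Evx1, 1.65 for Gata2, 1.05 for Sox7, 0.75 for Sox1, 0.541 for Cdx2, 0.209 for Gata6, 0.165 for Mixl1, 0.0451 for Foxa2 and 0.0346 for Sox17. At 0 h the library values of Sox1 and Cdx2, of Gata6 and Mixl1, and of Foxa2 and Sox17 overlapped, so the order within these pairs is not resolved. Evx1 (2.40 and 2.08 CPM per kb) and Gata2 (1.70 and 2.07) were separated at 0 h by less than the spread within either gene. By CPM, Eomes lay above 57.9% of the genes tested, Gata2 above 38.3% and Mixl1 above 0.4%.

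**Figure D2:**
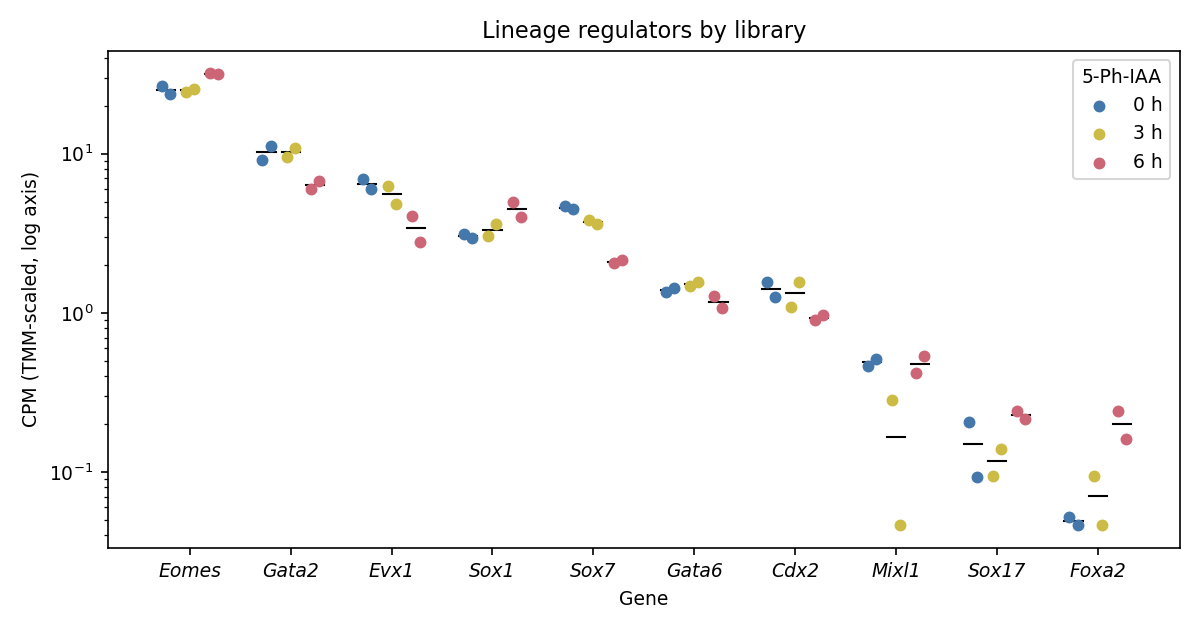
CPM (TMM-scaled, log axis) of each gene in each library, coloured by hours of 5-Ph-IAA; each point is 1 library and each black line the mean of 2. Both 6 h libraries lie above all 4 others for Eomes and Sox1 and below them for Gata2, Evx1 and Sox7, and the counts behind Mixl1, Sox17 and Foxa2 are between 1 and 11.

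Of Eomes, Evx1 and Mixl1, the primitive streak genes described here, Eomes had the highest level. Eomes encodes a T-box factor (ENSMUSG00000032446, chromosome 9, 118478212 to 118486132, GRCm38). Before treatment 513 and 508 reads were counted, after 3 h 518 and 551, and after 6 h 530 and 592, which came to 26.6 and 23.6 CPM, 24.5 and 25.5 CPM, and 32.0 and 31.8 CPM. The 6 h libraries were the highest and did not overlap the others, and the 0 h and 3 h libraries overlapped. Eomes rose from 25.1 ± 2.15 to 31.9 ± 0.129 CPM (SD, n = 2 each) between 0 and 6 h, a log2 fold change of 0.35 ± 0.07 (SE; edgeR adjusted p = 0.00169). It also passed for 6 h against 3 h (0.35 ± 0.07, adjusted p = 0.00188). At 3 h its 95% interval ran from -0.15 to 0.15 on the log2 scale (adjusted p = 1).

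Evx1, a homeobox gene of the posterior streak (ENSMUSG00000005503, chromosome 6, 52313498 to 52318378), moved the other way. At 0 h it had 133 and 129 counts, at 3 h 133 and 104, and at 6 h 67 and 52, or 6.89 and 5.98, 6.29 and 4.81, and 4.04 and 2.79 CPM. The 3 h libraries overlapped those at 0 h, and both 6 h libraries were below all others. Evx1 fell from 6.44 ± 0.646 to 3.42 ± 0.883 CPM at 6 h (log2 fold change -0.92 ± 0.19, edgeR adjusted p = 0.00203). Against 3 h the log2 fold change was -0.71 ± 0.19 (adjusted p = 0.0145), a call that was lost without replicate 1 of 3 h (-0.50, adjusted p = 0.17), without replicate 2 of 6 h (-0.45, adjusted p = 0.166) and with DESeq2 (adjusted p = 0.0541). The antisense transcript Evx1os, which lies on the opposite strand, shares 73 bases (2.5%) of the Evx1 exons. At 0 h it had 26 and 19 counts, at 3 h 8 and 20, and at 6 h 16 and 4, and its log2 fold change at 6 h was -0.95 ± 0.50 (adjusted p = 0.193), and ran from -2.33 without replicate 1 of 6 h (adjusted p = 0.026) to -0.19 without replicate 2 of 6 h (adjusted p = 0.839). Whether the deposited counts used the strand of the reads is not given in the sources used here, so reads in the shared stretch cannot be assigned. The other annotated transcripts that overlap one of the 10 genes (Gm33460 at Eomes, Sox1ot and Gm25239 at Sox1, Gm37587 at Sox17 and 1010001N08Rik at Gata6) had 0 to 9 counts in a library.

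Mixl1, a homeobox gene of the streak that acts in mesendoderm (ENSMUSG00000026497, chromosome 1, 180693043 to 180697034), was close to the limit of detection. At 0 h it had 9 and 11 counts, at 3 h 6 and 1, and at 6 h 7 and 10. The low 3 h values gave a log2 fold change of -1.54 ± 0.60 (interval -2.82 to -0.26, unadjusted p = 0.0209, edgeR adjusted p = 0.359). That value was -3.24 without replicate 1 of 3 h and -0.77 without replicate 2 of 3 h, and it did not pass without any single library (edgeR adjusted p 0.322 to 0.833). The 6 h mean was 0.479 CPM against 0.488 CPM at 0 h. Without replicate 1 of 3 h, which left the library with 1 count as the only one at 3 h, Mixl1 passed for 6 h against 3 h (log2 fold change 3.22, adjusted p = 0.0397), against 1.52 ± 0.63 with all libraries (adjusted p = 0.0948).

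Among the endoderm regulators, Sox7 was the one that passed the test, and its fitted fall for 6 h against 0 h was the largest of the 8 genes tested in that comparison, with an interval (-1.49 to -0.75) that overlaps that of Evx1 (-1.32 to -0.53). Sox7 encodes an SRY-box factor of the F group that acts in primitive endoderm and endothelium (ENSMUSG00000063060, chromosome 14, 63943673 to 63950732). Before treatment 90 and 97 reads were counted, after 3 h 81 and 78, and after 6 h 34 and 40, or 4.67 and 4.50, 3.83 and 3.61, and 2.05 and 2.15 CPM. No group overlapped another, and the 3 h libraries lay between the others. Sox7 fell from 4.58 ± 0.119 to 2.10 ± 0.0685 CPM at 6 h (log2 fold change -1.12 ± 0.18, edgeR adjusted p = 0.000237) and was lower at 6 h than at 3 h (-0.82 ± 0.18, adjusted p = 0.00428). The 3 h value of -0.30 ± 0.15 did not pass (interval -0.61 to 0.02, adjusted p = 0.486).

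Sox17, which belongs to the same SOX group and directs definitive endoderm (ENSMUSG00000025902, chromosome 1, 4490931 to 4497354), had counts of 4 and 2 (0 h), 2 and 3 (3 h), and 4 and 4 (6 h). Foxa2, a forkhead factor of endoderm and the node (ENSMUSG00000037025, chromosome 2, 148042877 to 148046969), had 1 and 1, 2 and 1, and 4 and 3 counts. Both failed the count filter and were not tested. The ratio of summed CPM at 6 h to 0 h was 1.55 for Sox17, with an exact 95% interval from 0.471 to 5.41, and 4.06 for Foxa2, from 0.773 to 40.1. These intervals cover counting error only, and both hold a ratio of 1. When every gene with a count was tested, neither passed for 6 h against 0 h (edgeR adjusted p = 0.757 for Sox17 and 0.447 for Foxa2). Of the Sox17 exons, 16.8% lie over an antisense transcript that had 0 counts in all libraries.

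Gata6, a zinc finger factor that commits cells to primitive endoderm (ENSMUSG00000005836, chromosome 18, 11052064 to 11085635), had counts of 26 and 31 (0 h), 31 and 34 (3 h), and 21 and 20 (6 h). That is 1.35 and 1.44 CPM, 1.47 and 1.57 CPM, and 1.27 and 1.07 CPM. The 6 h libraries were the lowest, but the log2 fold change of -0.26 ± 0.27 against 0 h did not pass (interval -0.82 to 0.30, edgeR adjusted p = 0.564). A change in Gata6 of that size was not detectable at this depth.

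Sox1, the SOX gene of the early neural plate, was the only ectoderm regulator among the 10 (ENSMUSG00000096014, chromosome 8, 12395295 to 12400126). At 0 h it had 60 and 64 counts, at 3 h 64 and 78, and at 6 h 83 and 75, or 3.11 and 2.97, 3.03 and 3.61, and 5.00 and 4.03 CPM. The 6 h libraries did not overlap the others, and those at 0 and 3 h overlapped. Sox1 rose from 3.04 ± 0.101 to 4.52 ± 0.692 CPM at 6 h (log2 fold change 0.56 ± 0.18, edgeR adjusted p = 0.0299), and the value against 3 h, 0.44 ± 0.17, did not pass (adjusted p = 0.082). This call at 6 h was lost with DESeq2 (log2 fold change 0.57, adjusted p = 0.188), without replicate 1 of 0 h (0.60, adjusted p = 0.0657), without replicate 2 of 0 h (0.53, adjusted p = 0.119) and without replicate 1 of 6 h (0.41, adjusted p = 0.209).

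Of the trophectoderm regulators, Gata2 was lower at 6 h. Gata2 encodes a zinc finger factor of trophoblast and of blood stem cells (ENSMUSG00000015053, chromosome 6, 88193891 to 88207032). Before treatment 177 and 241 reads were counted, after 3 h 203 and 236, and after 6 h 99 and 126, or 9.17 and 11.2, 9.60 and 10.9, and 5.97 and 6.76 CPM. The 3 h libraries lay within the range of those at 0 h, and both 6 h libraries were below them. Gata2 fell from 10.2 ± 1.41 to 6.37 ± 0.561 CPM (log2 fold change -0.68 ± 0.13, edgeR adjusted p = 0.00165), with the same size against 3 h (-0.68 ± 0.13, adjusted p = 0.0017). At 3 h its log2 fold change was 0.01 ± 0.12 (adjusted p = 0.993).

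Cdx2, the caudal homeobox gene that sets trophectoderm apart from the inner cell mass (ENSMUSG00000029646, chromosome 5, 147300805 to 147307270), had counts of 30 and 27 (0 h), 23 and 34 (3 h), and 15 and 18 (6 h). Its levels were 1.56 and 1.25 CPM, 1.09 and 1.57 CPM, and 0.904 and 0.966 CPM. The 6 h libraries were the lowest, and the log2 fold change against 0 h was -0.57 ± 0.30, which did not pass (interval -1.21 to 0.07, edgeR adjusted p = 0.195). The ratio of summed CPM was 0.672, with an exact counting interval from 0.424 to 1.05.

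**Figure D3:**
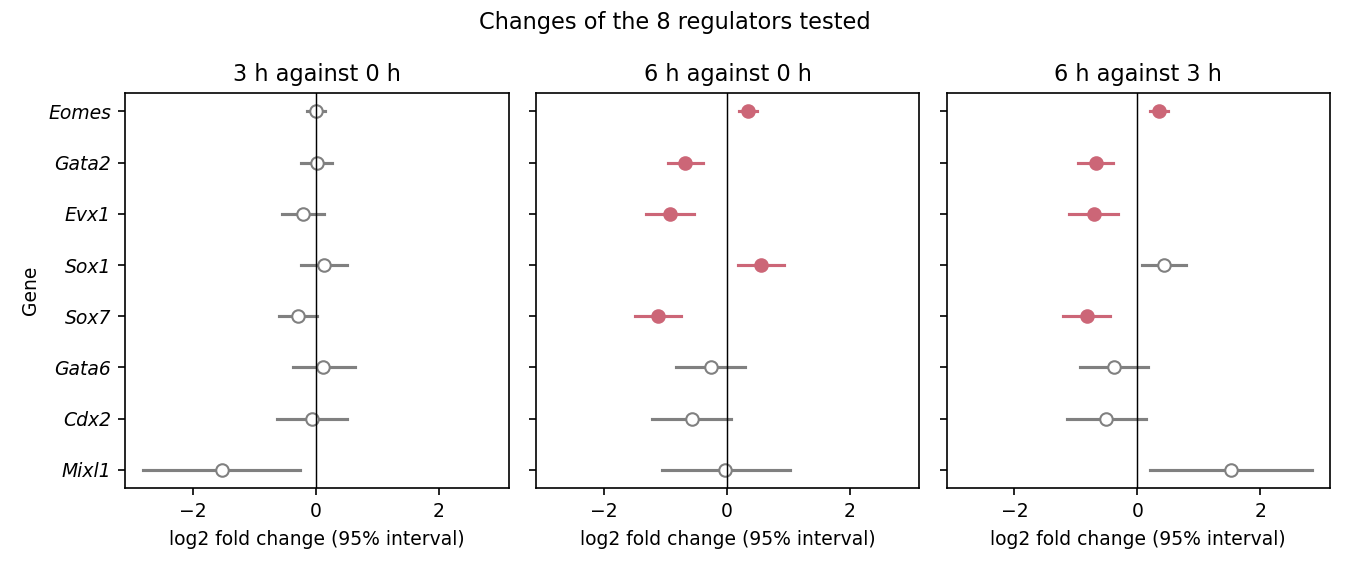
Log2 fold changes with 95% intervals from the edgeR fit for the 8 genes tested, in each of the 3 comparisons; filled red points passed at an adjusted p under 0.05 and open grey points did not. At 3 h none passed, at 6 h against 0 h Eomes and Sox1 were to the right of 0 and Gata2, Evx1 and Sox7 to the left, and the intervals of Mixl1 are the widest.

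Counted together, 0 of the 8 genes tested passed at 3 h, where 0.184% of all tested genes did (0.0699% higher and 0.114% lower). At 3 h, 1 of the 8, Mixl1, had an unadjusted p under 0.05, and DESeq2, which gave an adjusted p for 3 of them, called 0. At 6 h, 5 of 8 passed, 2 higher and 3 lower, where 22.2% of all genes did, 9.92% higher and 12.3% lower. For 6 h against 3 h, 4 of 8 passed, 1 higher and 3 lower, where 21.4% of all genes did, 9.71% higher and 11.7% lower. The median log2 fold change of the 8 was -0.03, -0.42 and -0.44 in the 3 comparisons in that order, and that of all genes tested was -0.001, 0.002 and 0.005. The groups did not overlap in 3, 7 and 8 of the 8 genes, against 42.3%, 59.5% and 60.8% of all genes. The comparisons share libraries and are not independent of each other. Both genes under the filter are outside these counts. The 8 genes lie in the lower range of levels, between -1.09 and 4.77 in average log2 CPM. Among all 9050 tested genes in that range, 15.5% passed at 6 h (4.95% lower) and 14.4% for 6 h against 3 h (3.82% lower).

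The fall of Sox7, Evx1 and Gata2 and the rise of Eomes at 6 h passed in each of the 13 alternative analyses run, including those that left out 1 library. The level of the feeder markers also varied between the groups. All 25 had a log2 fold change below 0 at 3 h (median -0.14), 15 of 25 at 6 h (median -0.02) and 1 of 25 for 6 h against 3 h (median 0.16). With edgeR 0 of them passed at 3 h, where 18 had an unadjusted p under 0.05 and DESeq2 called 0, and 2 rose at 6 h. For 6 h against 3 h, 9 rose, among them Bgn (0.20 ± 0.04), Prrx1 (0.27 ± 0.05) and Col6a3 (0.21 ± 0.04). That count was 5 without replicate 1 of 3 h and 20 without replicate 2 of 6 h, and the one at 6 h was 1 without replicate 2 of 3 h and 4 without replicate 1 of 6 h. With the mean of the feeder markers as a covariate, an alternative added after seeing the data, the same 5 genes passed at 6 h against 0 h. That mean was 7.83 and 7.74 log2 CPM at 0 h and 7.84 and 7.72 at 6 h. Being nearly equal at these times, it could change little in this comparison. At 3 h it was 7.63 and 7.64, below all other libraries, so covariate and time were partly tied for 6 h against 3 h. For 6 h against 3 h only Evx1 passed in that fit, and the log2 fold changes were 0.25 for Eomes (adjusted p = 0.17), -0.83 for Sox7 (adjusted p = 0.0871) and -0.38 for Gata2 (adjusted p = 0.244).

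Markers of endothelium and of blood cells, in which Sox7, Sox17 or Gata2 are also used, were detected. In every library the summed level of the endothelial markers was below that of the 10 lineage regulators, and that of the blood cell markers was above it. The 12 endothelial markers summed to 25.0 and 30.6 CPM at 0 h, 30.0 and 27.8 CPM at 3 h and 25.6 and 25.9 CPM at 6 h. Of 8 tested, 1 rose at 6 h, where 9.92% of all genes did. It was Plvap, an endothelial membrane protein, from 0.705 to 1.51 CPM (log2 fold change 1.08 ± 0.31, edgeR adjusted p = 0.0187). The call of Plvap was lost without replicate 1 of 0 h (0.93), replicate 1 of 6 h (1.03) and replicate 2 of 6 h (1.14). Other endothelial markers had values in the other direction: 5 of the 8 tested had a log2 fold change below 0 at 6 h, among them Esam (-0.68, adjusted p = 0.165), Tek (-0.35, adjusted p = 0.0883) and Vwf (-0.33, adjusted p = 0.171). Esam, an endothelial adhesion molecule, passed for 6 h against 3 h, from 1.24 to 0.654 CPM (-0.92 ± 0.31, adjusted p = 0.0463), a call lost without any single 3 h or 6 h library (-0.94 to -0.89). The defining marker Cdh5, VE-cadherin, was at 0.0955, 0.14 and 0.0904 CPM at 0, 3 and 6 h and was not tested, with 0 counts in 1 of the 6 h libraries. The 10 blood cell markers summed to 154 to 176 CPM over the libraries, against 50.3 to 54.1 CPM for the 10 lineage regulators. Kit alone took 78.2, 81.6 and 65.8 CPM of that sum at 0, 3 and 6 h. Lyz2, a lysozyme of myeloid cells, measured 36.6 CPM per kb and Cd68, a macrophage marker, 11.8, both above Gata2 (1.65) and Sox7 (1.05). So were Kit (8.43), C1qa (5.32) and Adgre1 (2.46). Csf1r (1.1) lay between Gata2 and Sox7, and Spi1 (0.961), Tal1 (0.12), Ptprc (0.0929) and Itgam (0.0876) were below both. Of these 10, 2 fell at 6 h, where 12.3% of all genes did. They were Kit, a receptor that ES cells also express, by 0.25 on the log2 scale, and Spi1, the myeloid factor PU.1, by 0.73. The call of Kit was lost without replicate 2 of 0 h (-0.15) or replicate 1 of 6 h (-0.18), and that of Spi1 without replicate 2 of 0 h (-0.61) or replicate 2 of 6 h (-0.57). The count of blood cell markers was 1 without either 6 h replicate. Csf1r, the receptor of macrophage colony-stimulating factor, rose for 6 h against 3 h from 5.38 to 7.15 CPM (0.41 ± 0.13, adjusted p = 0.0292), a call lost without any single 3 h or 6 h library (0.41 to 0.42). The part of such cells in the fall of Sox7 and Gata2 was not tested.

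**Figure D4:**
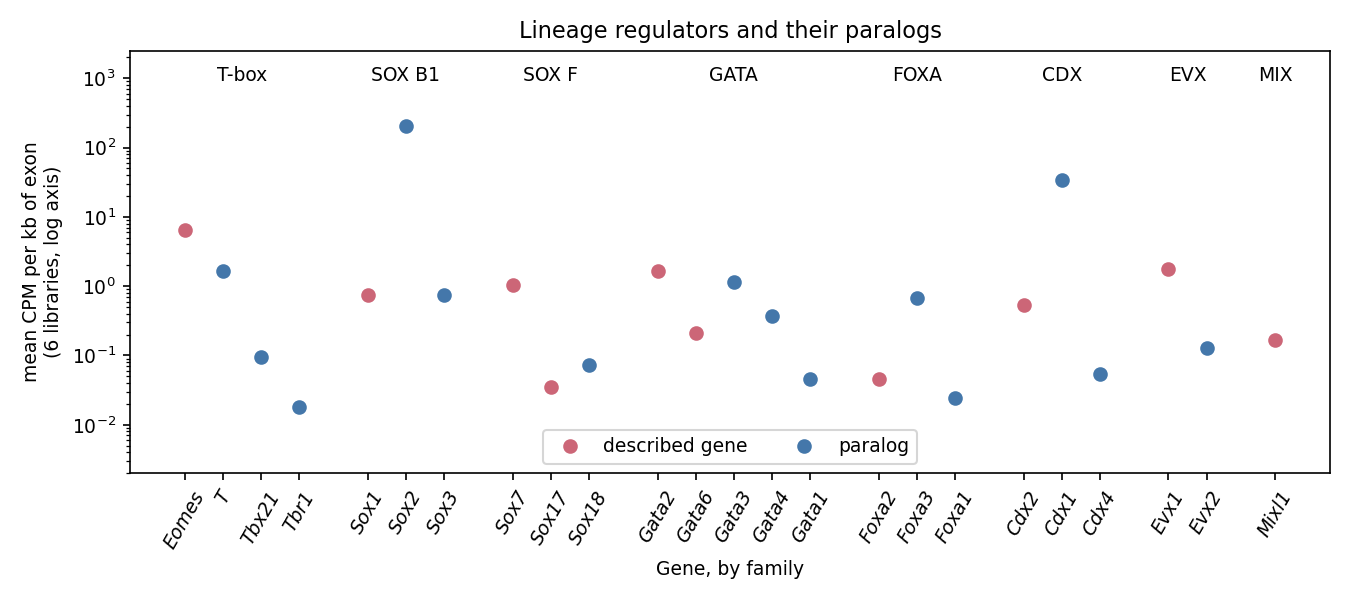
Mean CPM per kb of exon over the 6 libraries (log axis) for the 10 lineage regulators (red) and 14 paralogs (blue), ordered by gene family. Sox2 and Cdx1 lie far above Sox1 and Cdx2, and Eomes lies above the T-box relatives drawn, T, Tbx21 and Tbr1. The T-box gene Tbx3, listed with the ES cell identity genes, is not drawn and measured 36.6 CPM per kb, above Eomes. Gata5, with 0 counts, is not drawn.

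Close relatives of the 10 genes ranged from undetected to abundant. Sox2, the pluripotency factor of the same SOX group as Sox1, measured 208 CPM per kb and Sox3 0.757, beside 0.75 for Sox1. Cdx1 measured 34.6 CPM per kb and Cdx2 0.541. Brachyury, listed as T, a streak gene related to Eomes, measured 1.67. In the GATA family, Gata3 measured 1.15, Gata4 0.368 and Gata1 0.0461 CPM per kb, and Gata5 had no count. Of 8 paralogs tested, 1 rose and 2 fell at 6 h, where 9.92% of all genes tested rose and 12.3% fell. Cdx1 fell from 68.6 to 53.7 CPM (log2 fold change -0.35 ± 0.05, edgeR adjusted p = 0.000195) and T from 4.97 to 3.19 CPM (-0.64 ± 0.18, adjusted p = 0.0159), while Sox2 rose from 402 to 441 CPM (0.13 ± 0.04, adjusted p = 0.0314). The count of 3 fell to 1 without replicate 1 of 0 h or replicate 2 of 6 h, where the calls of T (-0.51 and -0.52) and Sox2 (0.08 and 0.09) were lost. The call of Sox2 was also lost without replicate 2 of 3 h (0.13, adjusted p = 0.0526). Thus at 6 h the T-box relatives Eomes and T had log2 fold changes of opposite sign.

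Other genes of the same lineages, none of them among the 10, included some that passed in each direction at 6 h. Of all genes tested 22.2% passed, 9.92% higher and 12.3% lower, and the streak, endoderm and trophectoderm counts lie near that share. Of 10 tested genes of the streak and mesoderm none rose and 2 fell, T and Snai1 (median log2 fold change -0.11, against 0.002 for all genes). Snai1, a repressor of E-cadherin, fell from 26.4 to 17.2 CPM (-0.62 ± 0.08, edgeR adjusted p = 2.9e-05). Of 11 tested endoderm genes 1 rose, Hhex, a homeobox gene of the anterior endoderm (0.45 ± 0.12, adjusted p = 0.014), and 1 fell, Lama1, a laminin chain (-0.22 ± 0.07, adjusted p = 0.0383), with a median of 0.06. Of 12 neural ectoderm genes 3 rose and 1 fell (median 0.09), and the 3 were Lhx2 (1.01 ± 0.27), Zfp521 (0.51 ± 0.14) and Pou3f1 (0.56 ± 0.18). The 1 that fell was Sox11 (-0.14 ± 0.04), named after its value was seen. Of 13 trophectoderm genes 2 rose and 1 fell (median 0.07): Ets2 rose from 40.5 to 50.5 CPM and Tead4, a partner of YAP that acts upstream of Cdx2 in the embryo, fell from 48.7 to 38.2 CPM (-0.35 ± 0.05, adjusted p = 0.000209). The second riser was Tfap2c (0.26 ± 0.09), named after its value was seen. Between 3 h and 6 h, Gata4, the partner of Gata6 in primitive endoderm, rose from 1.08 to 1.81 CPM (0.75 ± 0.25, adjusted p = 0.0413), and the keratin gene Krt7 fell from 1.59 to 0.795 CPM (-0.99 ± 0.28, adjusted p = 0.0178). Both of these calls were lost without any single 3 h or 6 h library, at log2 fold changes of 0.65 to 0.84 for Gata4 and -1.01 to -0.97 for Krt7.

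Several of these lineage counts rest on single libraries. The endoderm count was 0 without replicate 2 of 0 h and 1 without replicate 1 of 3 h or of 6 h. The neural count was 0 without replicate 2 of 0 h and 1 without replicate 1 of 6 h, and DESeq2 called 0 of the 8 neural genes for which it gave an adjusted p. The streak count was 1 without replicate 1 of 0 h or replicate 2 of 6 h. Of the genes named, the calls of Snai1, Tead4 and Ets2 at 6 h held in all 13 alternatives. Without replicate 2 of 0 h the calls of Hhex (0.37), Lama1 (-0.15), Lhx2 (0.92), Zfp521 (0.37) and Pou3f1 (0.61) were lost, and without replicate 1 of 6 h those of Hhex (0.42), Lama1 (-0.11), Lhx2 (0.88), Zfp521 (0.36) and Pou3f1 (0.64). Lama1 was also lost without replicate 1 of 3 h (-0.22), and Pou3f1 without replicate 1 of 0 h (0.52) or replicate 2 of 6 h (0.48). The call of Sox11 was lost without replicate 2 of 0 h (-0.09), replicate 1 of 3 h (-0.14) or replicate 1 of 6 h (-0.11), and that of Tfap2c without replicate 1 of 0 h (0.20), replicate 2 of 3 h (0.26) or replicate 2 of 6 h (0.06). Many members of these lists were at the edge of detection: Msgn1, Cer1, Ttr and Tpbpa had no count in any library.

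The ES cell identity genes changed at 6 h as well, 4 higher and 7 lower of 15 tested (median log2 fold change -0.14), where 22.2% of all genes passed, 9.92% higher and 12.3% lower. Esrrb, a nuclear receptor of the naive state, fell from 742 to 555 CPM, Tfcp2l1 from 1440 to 1171 CPM and Tbx3 from 262 to 208 CPM. Nanog and Sox2, both measured at over 400 CPM, were among those that rose (0.13 each), and the call of Nanog, chosen for mention with its value known, was lost without replicate 1 of 0 h (0.10).

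By the shape of their levels over the 6 libraries, the genes most like Eomes were AI597479 (Pearson r = 0.999) and Slc44a2 (0.998), and those most like Gata2 were Msl2 and Mysm1 (both 0.999). Those most like Sox7 were Rps13 (0.999) and Ajuba (0.998), those most like Evx1 were Pdgfc and Mpv17 (both 0.994), and those most like Sox1 were Qpctl (0.997) and Jag2 (0.994). For Gata6 they were Ippk (0.992) and Brf1 (0.987), for Cdx2 Cavin4 (0.991) and Atp5o (0.987), and for Mixl1 Naprt (0.991) and Sgcd (0.983). With 6 libraries many genes reach such values: of the 11688 genes compared with each, 1239 had r over 0.9 with Gata2, 1196 with Sox7, 679 with Eomes, 484 with Evx1 and 364 with Sox1. These correlations describe 6 libraries that share 3 times.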

How the data were processed

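Single-end polyA RNA-seq was done on 6 libraries, 2 per time of treatment. The deposited values are raw counts per Ensembl gene, 1 column per library, which the authors made on GRCm38 (mm10). Per the submitters' processing notes, the tools were featureCounts 2.0.3, HISAT2 2.2.1 and fastp 0.22.0. Not given in the sources used here are the annotation release, the strand setting and how multi-mapping reads were treated. Symbols, positions and exon lengths came from GENCODE M21 (55227 IDs matched) and start-site windows from RefSeq (GRCm38.p6).

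Computed here with R 4.3.3, edgeR 4.0.16 and DESeq2 1.42.0: genes were kept by filterByExpr (default minimum 10), TMM factors were estimated, and a single quasi-likelihood model held a mean for each time (residual degrees of freedom 3, prior 13.5) over 6 libraries and gave two-sided tests, adjusted over 15748 genes. The SE is the log2 fold change divided by the square root of F. Ratios of summed CPM have exact conditional 95% intervals for Poisson counts, which cover counting error only. The fit was tested on simulated counts. Separate cultures are not stated in the labels; the p-values therefore reflect only the spread of these libraries, which may be technical. The 2 libraries of each time were not a repeated deposit: a chi-square over genes was 4.55, 2.08 and 7.08 times its degrees of freedom at 0, 3 and 6 h.

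The genes and lists were chosen with earlier results of these data known. Each of the 10 genes was named. For each other list up to 3 called genes with the smallest adjusted p were named, or the most abundant where none was called, together with genes that overlap the 10 and, by Pearson r of log2 CPM, the 2 genes with the most similar levels. Predicted genes and those with an average log2 CPM under 1 were not considered for the latter. Alternatives were DESeq2 size factors, unscaled libraries, no filter, DESeq2, a replicate block, leaving out each library and, in each comparison, the 4 libraries alone. A feeder covariate and the motifs were added after the data were seen. List counts were recomputed at 6 h and, for feeder genes, also for 6 h against 3 h, a choice made after the list results were seen.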

Additional observations from a re-analysis of the deposited data

Results flagged for a closer look

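The change between 3 h and 6 h itself passed edgeR's test for 4 of the 8 genes tested, where 21.4% of all genes passed. They were Eomes (log2 fold change 0.35), Evx1 (-0.71), Sox7 (-0.82) and Gata2 (-0.68). In that fit their effects at the 2 times differed, and both effects are measured against the same 0 h libraries. With the feeder covariate, which was itself lowest at 3 h and so partly tied to time, Eomes, Sox7 and Gata2 no longer passed. Evx1 did not pass with DESeq2 (adjusted p = 0.0541), and its call was lost without replicate 1 of 3 h (-0.50) or replicate 2 of 6 h (-0.45). Groups of 2 libraries are too small for a check on single outlying libraries.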

How the results depend on the processing

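The number of the 10 genes that passed stayed at 0 at 3 h in all alternatives. It was 4 to 5 at 6 h and 3 to 4 for 6 h against 3 h when 1 library was left out, and 1 for 6 h against 3 h with the feeder covariate. The count over all genes at 3 h, 29, was 234 with no filter, 12 with DESeq2, 262 with a replicate block, 84 with only 4 libraries and 4 to 234 without a library. At 6 h the count of 3503 was 1701 with DESeq2 and 2439 to 3063 without a library. For 6 h against 3 h the count of 3375 was 1449 with DESeq2, 1354 with the feeder covariate and 1531 to 3697 without a library. With the replicate block the counts over all genes were higher, 4147 at 6 h and 4142 for 6 h against 3 h. With the feeder covariate the count at 6 h was 4451. In that covariate fit Tfap2c for 6 h against 3 h turned from -0.00 to 0.34 (edgeR adjusted p = 0.0117). The cause was not tested.

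List counts at 6 h moved as follows. With DESeq2 they were 1 for paralogs, 1 for streak genes, 0 for endoderm, 0 for neural, 0 for feeder, 0 for endothelial and 1 for blood cell genes. Without scaling factors they were 1 for endoderm and 5 for feeder genes, and 14 feeder genes for 6 h against 3 h. Feeder counts were 4 with no filter and 6 with the feeder covariate, endothelial 2 with that covariate and endoderm 1 with only 4 libraries. Without a library, counts were 1 to 3 for paralogs, 1 to 2 for streak, 0 to 2 for endoderm, 0 to 4 for neural, 2 to 3 for trophectoderm, 8 to 11 for ES cell, 1 to 4 for feeder, 0 to 1 for endothelial and 1 to 2 for blood cell genes, and 5 to 20 for feeder genes at 6 h against 3 h.

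With the replicate number as a block, the same 5 of the 10 genes passed at 6 h and the same 4 for 6 h against 3 h, and the feeder counts were 7 at 6 h and 16 for 6 h against 3 h. Over all genes tested, libraries with the same number showed almost no shared deviation (correlations 0.04, 0.04 and -0.02 between times). The summed feeder markers were higher in replicate 1 at each time. They were at 21550 against 19804 CPM at 0 h, 19218 against 18899 CPM at 3 h and 21521 against 19439 CPM at 6 h. The labels do not say whether the numbers are a pairing. These correlations cannot decide it, because counting error in low genes also lowers them. DESeq2 gave no adjusted p for Mixl1, Gata6 or Cdx2 in any comparison. Depth limits the result for these and for Sox17 and Foxa2, for which only large changes could have passed.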
